A study of Mus musculus with 26 samples.

Results

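The expression of 10 genes of the nuclear receptor system other than Pparg was followed through lung inflammation in mice: the liver X receptors Nr1h2 and Nr1h3, the retinoid X receptor Rxra, the retinoic acid receptor Rara, the vitamin D receptor Vdr, the fatty acid receptor Ppard, the coactivator Ppargc1b, the estrogen-related receptor Esrra, the glucocorticoid receptor Nr3c1 and the clock repressor Nr1d2. They were chosen by name, as the rows of a gene count table whose Ensembl identifiers carry these symbols in the GRCm38 annotation, and make up 10 of its 55487 genes. RNA sequencing was done on macrophages from the lung after lipopolysaccharide (LPS), a bacterial cell wall component that the series' design gives by the intratracheal route. BM-derived macrophages, the label for cells of bone marrow origin, were collected on day 1 (n = 5), day 3 (n = 4) and day 7 (n = 3) after LPS. Resident alveolar macrophages (AM), the self-renewing phagocytes of the air spaces, were collected with no LPS, called day 0 here (n = 3), and on day 1 (n = 4), day 3 (n = 3) and day 7 (n = 4) after LPS. The labels give no strain, sex, LPS dose or sorting gate, and an age word stands only with the day 0 libraries (Young). Nothing in them says that replicates came from separate mice, so p-values below gauge only how far these libraries vary, part of which may be technical.

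Nuclear receptors are transcription factors that a small lipophilic molecule can switch, and most of them bind DNA as pairs. Rxra encodes the common partner of the LXRs, RARs, PPARs and the vitamin D receptor, whereas the glucocorticoid receptor acts as a homodimer and the estrogen-related receptors need no known hormone. In macrophages LXRs drive cholesterol export, PPARs and PGC-1 coactivators drive lipid storage and oxidation, and several of these receptors restrain inflammatory genes.

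Start regions are shown for Rxra, Rara and Nr1h3, the members with the largest changes below, so that the sequence upstream of each can be read beside its values. The windows are the 250 bases before a RefSeq transcript start, on build GRCm38.p6, written in the direction of transcription with motif matches on either strand in capitals. Rxra (ENSMUSG00000015846, gene span chr2:27676440-27762957, plus strand) has a first start with the window chr2:27676951-27677200 and an internal one with chr2:27709042-27709291. Rara (ENSMUSG00000037992, chr11:98927818-98974942, plus strand) is shown at chr11:98937446-98937695, and Nr1h3 (ENSMUSG00000002108, chr2:91184061-91202834, minus strand) at chr2:91195117-91195366. The Rara and Nr1h3 windows also lie inside the gene spans, and windows at other starts of these genes are not shown.
Rxra, first start: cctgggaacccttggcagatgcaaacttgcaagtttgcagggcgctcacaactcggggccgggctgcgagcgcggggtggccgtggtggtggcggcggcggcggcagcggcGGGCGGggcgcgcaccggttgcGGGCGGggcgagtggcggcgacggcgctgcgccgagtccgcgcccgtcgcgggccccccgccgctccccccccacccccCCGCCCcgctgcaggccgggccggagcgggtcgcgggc
Rxra, internal start: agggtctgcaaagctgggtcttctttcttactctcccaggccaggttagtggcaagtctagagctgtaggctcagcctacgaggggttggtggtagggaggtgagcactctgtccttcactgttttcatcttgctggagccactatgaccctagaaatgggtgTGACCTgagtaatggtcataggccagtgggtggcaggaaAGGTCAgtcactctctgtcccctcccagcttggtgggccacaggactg
Rara: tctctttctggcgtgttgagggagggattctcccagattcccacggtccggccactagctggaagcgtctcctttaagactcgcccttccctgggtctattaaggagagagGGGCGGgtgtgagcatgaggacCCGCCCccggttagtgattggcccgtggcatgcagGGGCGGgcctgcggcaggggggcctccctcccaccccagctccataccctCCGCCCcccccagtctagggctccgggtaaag
Nr1h3: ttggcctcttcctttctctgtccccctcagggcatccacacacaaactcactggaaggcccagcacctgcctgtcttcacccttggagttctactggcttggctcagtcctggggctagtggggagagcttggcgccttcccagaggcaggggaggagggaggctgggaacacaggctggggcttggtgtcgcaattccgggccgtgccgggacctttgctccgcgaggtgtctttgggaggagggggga
The motifs searched were the GC box GGGCGG, the nuclear receptor half-site AGGTCA, the E-box CACGTG, the D-box TTANGTAA, the cyclic AMP response element TGACGTCA, the PU.1 site GAGGAAGT and the AP-1 site TGANTCA. The first Rxra window held 3 GC boxes, beginning 139, 117 and 38 bases before the start, and the Rara window held 4, at 139, 117, 82 and 32 bases. The internal Rxra window held 2 half-sites, at 87 and 48 bases, and the Nr1h3 window matched none of the motifs. No match in the windows shown overlapped another motif. A Rara window that is not shown, chr11:98937468-98937717, also held an E-box, 10 bases before its start. Among 32851 windows of the same length in the table, 32.7% held the GC box, 14.0% the half-site, 6.02% the E-box, 2.06% the D-box, 1.55% the cyclic AMP response element, 2.44% the PU.1 site and 6.75% the AP-1 site. The windows kept here covered 8 of the 10 members, with 13 windows in all. Ppargc1b and Nr3c1 were left out, so nothing is said of their start regions. A match is a description of the letters only.

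Library totals ran from 9176202 to 80816742 counts. All 10 members passed the filter on low counts that left 17143 genes for testing. Summed markers of alveolar macrophages were at 1080 to 1950 CPM (counts scaled to the library total and the TMM factor of each library) on BM day 1, at 2108 to 4456 CPM on BM day 3, and at 15680, 16550 and 3292 CPM in BM day 7 replicates 1, 2 and 3, against 19230 to 33930 CPM in AM libraries. A pair of libraries stood apart from their groups. BM day 3 replicate 1 had 7419 genes at 1 CPM or more and a summed fibroblast and endothelium marker level of 27620 CPM, against at most 551.8 CPM in AM libraries and 446.8 CPM in BM libraries of days 1 and 7. BM day 1 replicate 3 had 9022 such genes. The summed monocyte markers were at 1877 to 5392 CPM on BM days 1 and 7, against 715 to 2681 CPM in AM. In those BM and AM libraries neutrophil markers were at most 1283 CPM (3207 CPM in BM day 3 replicate 1), and over all libraries the sums reached 373 CPM for lung epithelium, 69.3 CPM for T and NK cells, 218 CPM for B cells, 0.924 CPM for erythroid cells, 261 CPM for dendritic cells, 562 CPM for eosinophils and 27.8 CPM for mast cells. The eosinophil sum was nearly all Siglecf, which is also an alveolar macrophage marker (561 of 562 CPM in the highest library, AM day 7 replicate 3). Summed Y-linked RNA also split the groups. It was at 0.103 to 3.81 CPM in BM day 7 and 0.152 to 4.09 CPM in AM day 7, but at 145.7 to 227.2 CPM in AM of days 0, 1 and 3. It was at 7.75 to 38.4 CPM in BM day 1, below the 191 to 217 CPM of AM day 1. BM day 3 held both kinds of library. In BM day 1 against AM day 1 this difference coincides fully with the cell type, and where AM day 7 is set against earlier AM days it coincides with the day, so that within these groups they cannot be told apart. When that level entered the fit as a covariate, BM day 1 against AM day 1 gave log2 fold changes of 1.94 ± 0.37 for Nr1h3 (edgeR adjusted p = 0.00038) and 1.49 ± 0.32 for Rara (edgeR adjusted p = 0.0013). That of Rxra was -0.66 ± 0.23 (edgeR adjusted p = 0.042). Within groups the level differed most on BM day 3, from 0.0479 to 168.7 CPM, so the covariate rests mostly on those libraries. They include BM day 3 replicate 1. These values therefore do not separate the Y-linked level from the cell type. AM day 0 and BM day 1 each have a library name prefix of their own, so in comparisons with either group the prefix and the condition cannot be told apart. In bulk samples such as these, fewer cells of a type and less RNA per cell cannot be told apart either.

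Rxra, Rara and Nr1h3 carried most of the changes. In AM, Rxra and Rara fell on days 1 and 3 after LPS, being 2.57-fold and 2.72-fold lower on day 1 than on day 0, and their day 7 means lay between those of day 3 and day 0. In BM-derived macrophages, day 1 stood out by high Nr1h3 and Rara relative to AM of the same day, and both fell by day 3. Rxra was lower than in AM on days 1 and 3 alike, with BM means of 101 and 103 CPM against AM means of 156 and 181 CPM. Neither of these Rxra calls was kept under every alternative. Of 110 tests (10 members in 11 comparisons), 14 passed edgeR's quasi-likelihood test at an adjusted p under 0.05, 5 of them for Rxra, 4 for Rara, 2 each for Nr1h3 and Nr3c1 and 1 for Esrra. Nr1h2, Ppard, Ppargc1b, Vdr and Nr1d2 passed none.

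Between the cell types, BM day 1 against AM day 1 gave 3 members called, 2 higher and 1 lower, where 29.0% of all genes were called, 15.2% higher and 13.8% lower. The members' share is near that background. BM day 3 against AM day 3 gave 1 member, with 3.98% of all genes called, and BM day 7 against AM day 7 gave 0, with 1.77%. At day 7 2 members had an unadjusted p under 0.05 in edgeR, and DESeq2 called 0. When only the BM and AM day 7 libraries were fitted, Rxra, Rara, Vdr, Esrra and Nr1d2 were called, 5 of 10 members, with 20.4% of the 14454 genes tested there called. Without the 2 libraries that stood apart, 5 members were called on BM day 1 against AM day 1, with 40.4% of all genes. In AM, day 1 against day 0 gave 2 members, both lower (6.28% of all genes called, 3.22% higher and 3.06% lower), day 3 against day 0 gave 2 (2.51%) and day 7 against day 0 gave 0 (0.677%), with 2 at an unadjusted p under 0.05 in edgeR and 0 by DESeq2. AM day 3 against day 1 gave 1 member (0.834%), and AM day 7 against day 3 gave 0 (1.59%), with 3 at an unadjusted p under 0.05 in edgeR and 0 by DESeq2. Fits of the compared AM libraries alone called 5 members in AM day 7 against day 0 (16.9% of genes) and 5 in AM day 7 against day 3 (16.6%). In BM-derived macrophages, day 3 against day 1 gave 4 members, all lower (25.9% of all genes called, 10.6% higher and 15.2% lower), and day 7 against day 3 gave 1 (3.98%). The test of whether day 7 against day 3 differed between the cell types called 0 members (0.362%), with 1, Rara, at an unadjusted p under 0.05 in edgeR and 0 by DESeq2.

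**Figure D1:**
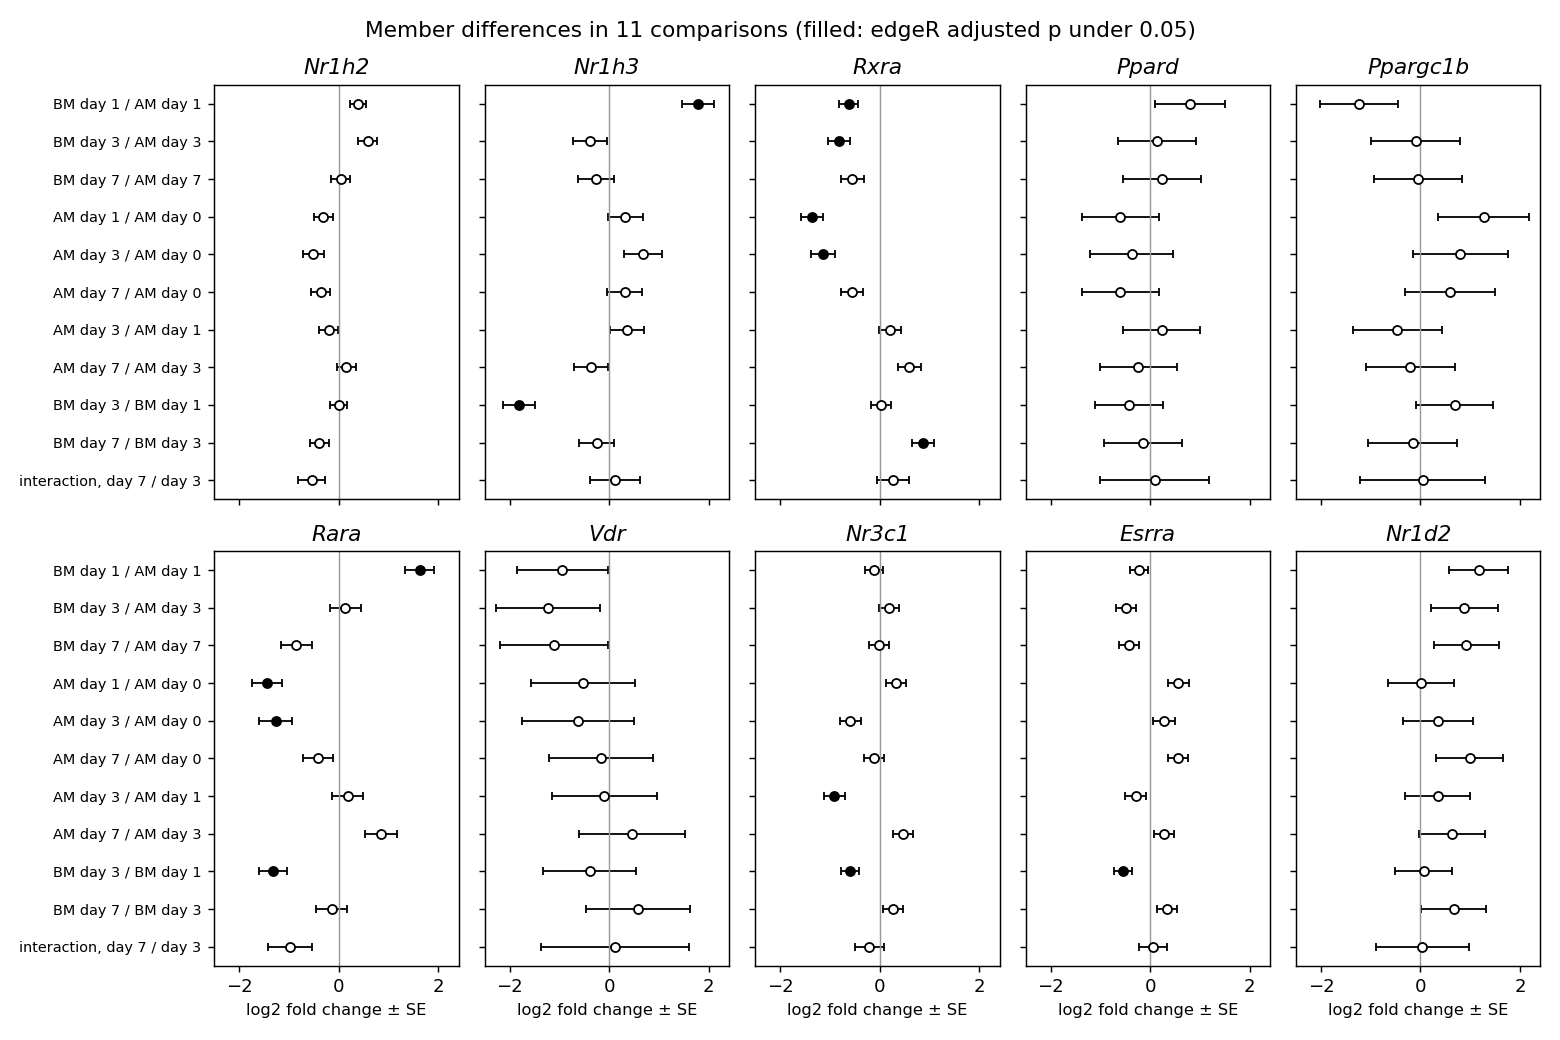
Log2 fold change of each member in 11 comparisons, named on the vertical axis, with horizontal bars for 1 SE. Filled points passed edgeR's test, and lie mostly in the Rxra, Rara and Nr1h3 panels. The wide bars of Vdr, Ppard and Ppargc1b belong to genes at 0 counts in 1 or 2 BM libraries. Nr1d2 also has wide bars, with counts in all 26 libraries.

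Rxra, the common dimer partner, was highest before LPS. It was at 101, 72.1, 87.3, 105 and 139.5 CPM on BM day 1 and at 102, 112, 117 and 79.6 CPM on BM day 3. The BM day 7 libraries had 192, 179 and 191 CPM. In AM it was at 459, 428 and 313 CPM on day 0, at 158, 99.6, 166 and 199.6 CPM on day 1, at 165, 152 and 225 CPM on day 3, and at 305, 247, 251 and 292 CPM on day 7. Every AM day 0 library lay above every other library, every AM day 7 library above the remaining ones, and BM days 1 and 3 reached at most 139.5 CPM. The neighbours in the order of group means that did not overlap were AM day 0 and AM day 7, and AM day 7 and BM day 7; below these, neighbouring groups overlapped.

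In AM, Rxra fell to 156 ± 41.5 CPM on day 1 (SD, n = 4), against 399.9 ± 77.2 CPM on day 0 (SD, n = 3), a log2 fold change of -1.36 ± 0.22 (SE; edgeR adjusted p = 0.00016). It fell by 1.15 ± 0.24 on the log2 scale on day 3 against day 0 (edgeR adjusted p = 0.0049), a call that was lost without AM day 3 replicate 2 (edgeR adjusted p = 0.061). On day 7 against day 0 the log2 fold change was -0.55 ± 0.22 (edgeR adjusted p = 0.61), although the groups did not overlap. The partner receptor was also lower in BM-derived macrophages than in AM, by 0.62 ± 0.20 on the log2 scale on day 1 (edgeR adjusted p = 0.019) and by 0.81 ± 0.22 on day 3 (edgeR adjusted p = 0.036). The day 1 call was lost without AM day 1 replicate 1 or 4 or BM day 1 replicate 2 or 3, with edgeR adjusted p-values from 0.053 to 0.086. It was also lost with no filter (-0.50 ± 0.20, edgeR adjusted p = 0.083) and with these libraries fitted alone (-0.54 ± 0.25, edgeR adjusted p = 0.15). The day 3 call was lost without AM day 0 replicate 2, AM day 3 replicate 1 or 3, BM day 3 replicate 1 or 4 or BM day 7 replicate 1 or 2, with edgeR adjusted p-values up to 0.2. It was lost too with library size alone (edgeR adjusted p = 0.072), no filter (0.058), a Y-linked covariate (0.12), a block by description numbers (0.051) and the compared groups alone (0.18). On day 7 all 3 BM libraries lay below all 4 AM libraries, at 187 ± 7.22 CPM against 274 ± 29.0 CPM, with a log2 fold change of -0.55 ± 0.23 (edgeR adjusted p = 0.42). With the day 7 libraries fitted alone it was -0.56 ± 0.10 (edgeR adjusted p = 0.0031).

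In BM-derived macrophages Rxra rose on day 7 against day 3, by 0.87 ± 0.22 on the log2 scale (edgeR adjusted p = 0.025), and all 3 day 7 libraries lay above all 4 day 3 libraries. Without BM day 3 replicate 1 the log2 fold change was 0.87 ± 0.24 (edgeR adjusted p = 0.038). The call was lost without BM day 3 replicate 4 or any 1 of the 3 BM day 7 libraries, with edgeR adjusted p-values from 0.06 to 0.091. It was also lost with library size alone (edgeR adjusted p = 0.059) and with the compared groups alone (edgeR adjusted p = 0.1). The summed alveolar macrophage markers were also higher in BM day 7 replicates 1 and 2, at 15680 and 16550 CPM, than on BM day 3, at 2108 to 4456 CPM. Replicate 3, with 3292 CPM of these markers, had 191 CPM of Rxra, inside the range of replicates 1 and 2. That is 1 library, and the part of these markers in the change was not tested. The BM day 3 group also mixes libraries with and without Y-linked RNA; with that level as a covariate the adjusted p was 0.055 in edgeR.

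**Figure D2:**
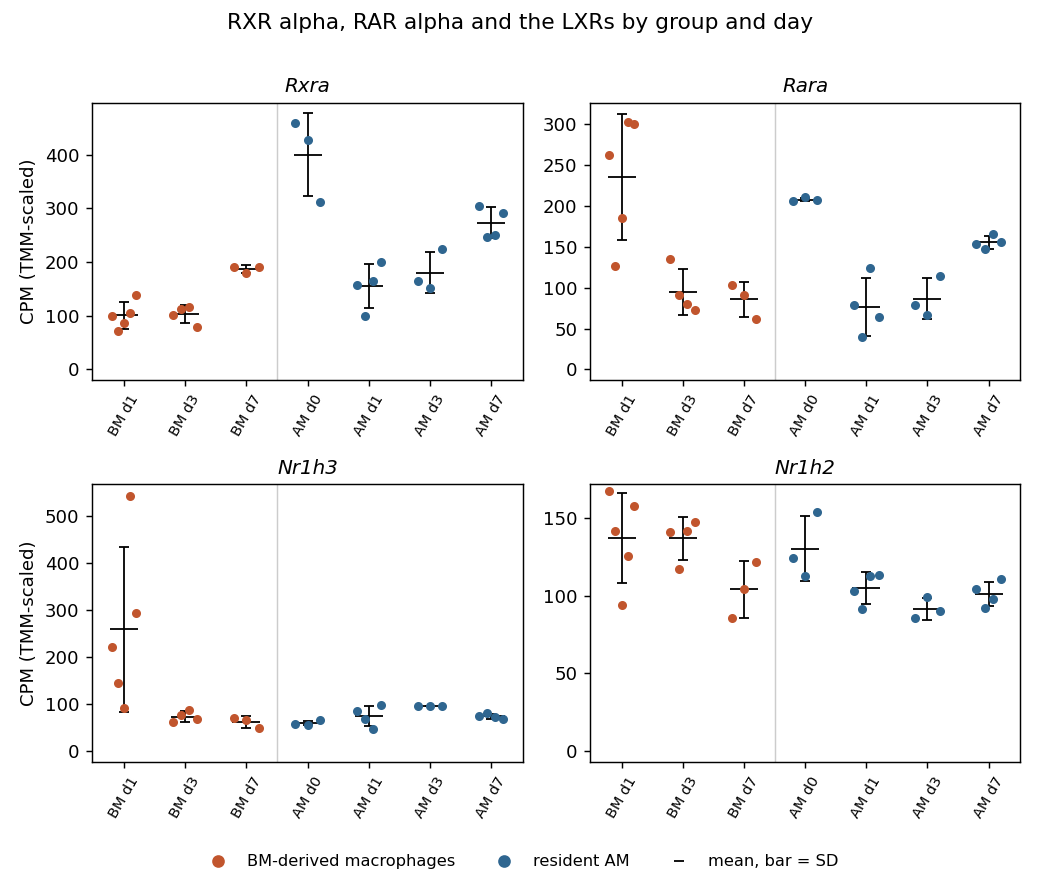
CPM of Rxra, Rara, Nr1h3 and Nr1h2 in each library (points), with group means and SD, for BM-derived macrophages on days 1, 3 and 7 and AM on days 0, 1, 3 and 7. Rxra and Rara dip on AM days 1 and 3, and Nr1h3 reaches 543 CPM in 1 BM day 1 library while AM libraries reach at most 98.5 CPM.

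Rara, the receptor for all-trans retinoic acid, fell in AM as Rxra did, but was high on BM day 1. It was at 263, 126, 186, 302 and 301 CPM on BM day 1 and at 135, 90.6, 79.5 and 73.3 CPM on BM day 3. The BM day 7 libraries had 103, 91.4 and 62.2 CPM. In AM it was at 206, 210.4 and 207 CPM on day 0, at 78.4, 39.9, 124 and 63.6 CPM on day 1, at 78.6, 66.5 and 114 CPM on day 3, and at 154, 147, 165 and 156 CPM on day 7. The 3 AM day 0 libraries lay close together and above every other AM library, while 3 of the 5 BM day 1 libraries lay above them.

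Against day 0, Rara fell by 1.44 ± 0.31 on the log2 scale on AM day 1 (edgeR adjusted p = 0.003) and by 1.27 ± 0.33 on AM day 3 (edgeR adjusted p = 0.035), with no overlap in either comparison. The day 3 call was lost when any 1 of the 3 AM day 0 libraries, AM day 3 replicate 1 or AM day 3 replicate 2 was left out, with adjusted p-values up to 0.26 in edgeR. It was also lost with a block by description numbers (edgeR adjusted p = 0.086). Markers of other cells moved over the same days in AM. Summed neutrophil markers were at 74.2 to 93.9 CPM on day 0, 105.5 to 588 CPM on day 1 and 203 to 384.5 CPM on day 3, with Elane at 0 in all 3 groups. Summed monocyte markers were at 818 to 1019 CPM on day 0, 715 to 892 CPM on day 1 and 1298 to 2681 CPM on day 3. Ly6c2, one of them, was at 4.42 to 7.85 CPM on day 0, 46.5 to 91.0 CPM on day 1 and 339 to 1189 CPM on day 3. Ccr2 and Nr4a1 of the same list did not rise. Ccr2 was at 39.55 to 63.2 CPM on day 0, 5.45 to 56.0 CPM on day 1 and 18.4 to 57.5 CPM on day 3. The Nr4a1 means were 668, 296 and 338 CPM on these days. Other sums were lower after LPS: B cell markers were at 162 to 205 CPM on day 0, 4.00 to 132 CPM on day 1 and 14.0 to 41.0 CPM on day 3. Dendritic cell markers were at 96.3 to 261 CPM on day 0, 13.9 to 39.2 CPM on day 1 and 12.1 to 16.6 CPM on day 3. Lung epithelium markers were at 249 to 373 CPM on day 0, 61.0 to 107 CPM on day 1 and 62.5 to 121 CPM on day 3. T and NK cell markers reached 69.3 CPM on day 0, 26.1 CPM on day 1 and 5.83 CPM on day 3. Eosinophil markers reached 534 CPM, 148 CPM and 242.5 CPM on these days, nearly all of it Siglecf, which is also an alveolar macrophage marker. Siglecf was at 447 to 534 CPM on day 0, 68.8 to 148 CPM on day 1 and 129 to 242.5 CPM on day 3. The eosinophil genes Prg2 and Epx were at 0 in all 3 groups. Summed alveolar macrophage markers were at 19230 to 24260 CPM on day 0, 20090 to 25410 CPM on day 1 and 21940 to 26730 CPM on day 3, so the ranges of the sums overlapped. Single genes of that list were lower after LPS, among them Siglecf (above) and Pparg. Pparg was at 196 to 266 CPM on day 0, 112 to 192 CPM on day 1 and 113 to 157 CPM on day 3. Not all genes of the list are given by day here. The part of these markers in the Rxra and Rara falls was not tested. On AM day 7 the Rara mean was 155 ± 7.56 CPM (SD, n = 4), against 86.5 ± 24.9 CPM on AM day 3 (SD, n = 3). The log2 fold change was 0.85 ± 0.31 (edgeR adjusted p = 0.35) without overlap. With these libraries fitted alone it was 0.84 ± 0.15 (edgeR adjusted p = 0.0022). On BM day 1 Rara averaged 235.5 ± 77.2 CPM (SD, n = 5), against 76.5 ± 35.5 CPM on AM day 1 (SD, n = 4). The difference of 1.62 ± 0.28 on the log2 scale (edgeR adjusted p = 8.3e-05) was without overlap. Rara was the 1 member without overlap in that comparison, where 23.3% of all genes did not overlap. Rara then fell by 1.32 ± 0.28 on BM day 3 against BM day 1 (edgeR adjusted p = 0.0014). These groups overlapped through BM day 3 replicate 1 and BM day 1 replicate 2. On day 7 its order was the opposite of day 1: all 3 BM libraries lay below all 4 AM libraries, with a log2 fold change of -0.86 ± 0.31 (edgeR adjusted p = 0.28) and of -0.86 ± 0.15 with the day 7 libraries fitted alone (edgeR adjusted p = 0.0031). The day 7 against day 3 change in BM-derived macrophages minus that in AM was -0.99 ± 0.44 on the log2 scale (edgeR adjusted p = 0.37).

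The LXRs sense oxidised cholesterol. Nr1h3, which encodes LXR alpha, was at 222, 146, 92.2, 543 and 294 CPM on BM day 1 and at 61.7, 77.4, 88.2 and 67.9 CPM on BM day 3. The BM day 7 libraries had 70.8, 67.0 and 48.5 CPM. In AM it was at 58.0, 56.6 and 65.7 CPM on day 0, at 85.5, 69.0, 47.8 and 98.5 CPM on day 1, at 96.8, 95.6 and 96.8 CPM on day 3, and at 75.7, 81.7, 72.4 and 69.0 CPM on day 7. All BM day 1 libraries but replicate 3 exceeded every other library, and replicate 3 lay inside the AM day 1 range. Nr1h3 was 3.45-fold higher on BM day 1 than on AM day 1, a log2 fold change of 1.79 ± 0.32 (edgeR adjusted p = 0.00014), and fell by 1.81 ± 0.32 on the log2 scale on BM day 3 against BM day 1, without overlap (edgeR adjusted p = 0.00023). Without the highest library, BM day 1 replicate 4, the first difference was 1.37 ± 0.27 (edgeR adjusted p = 0.00037). Nr1h3 exons share 34 bases with the transcript Gm13783, which had 274 counts in all libraries together against 54011 for Nr1h3.

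Nr1h2, which encodes LXR beta, had the smallest ratio of highest to lowest group mean among the 10 genes, with group means from 91.4 CPM (AM day 3) to 137 CPM (BM day 1). Its neighbours in the order of means all overlapped. It was at 141, 117, 142 and 147.5 CPM on BM day 3, against 85.5, 99.0 and 89.9 CPM on AM day 3, without overlap, with a log2 fold change of 0.58 ± 0.19 (edgeR adjusted p = 0.086). On BM day 1 against AM day 1 the log2 fold change was 0.39 ± 0.17 (edgeR adjusted p = 0.084). Without BM day 1 replicate 3 the BM day 1 difference was 0.55 ± 0.15 (edgeR adjusted p = 0.0093) and the BM day 3 difference had an edgeR adjusted p of 0.038. Per kilobase of exon, the Nr1h3 mean was 103 CPM on BM day 1 and the Nr1h2 mean 40.9 CPM, whereas on AM day 0 the means were 23.9 CPM per kilobase for Nr1h3 and 38.9 CPM per kilobase for Nr1h2.

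**Figure D3:**
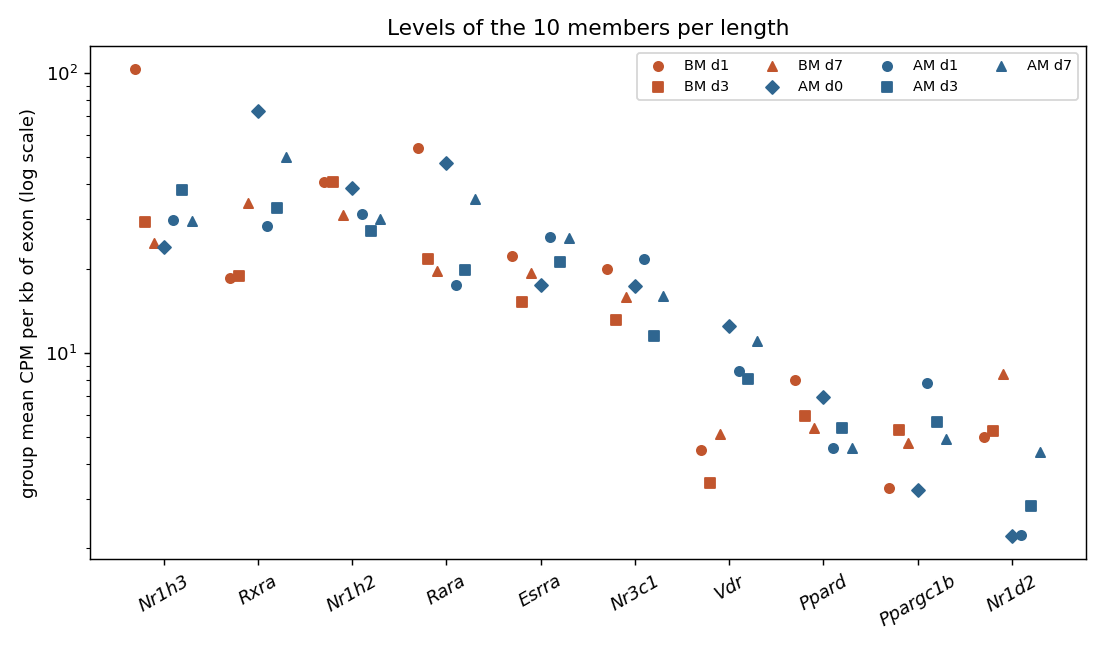
Group mean CPM per kilobase of exon for each member on a log axis, members ordered by their mean over groups, BM groups in red-brown and AM groups in blue. Nr1h3 on BM day 1 and Rxra on AM day 0 are the highest points, and Vdr lies lower in all 3 BM groups than in all 4 AM groups.

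Vdr, which pairs with RXR to bind active vitamin D, had lower group means in BM-derived macrophages than in AM on each day, but no difference passed the test. It was at 41.5, 52.2, 0, 16.8 and 16.5 CPM on BM day 1 and at 0, 26.5, 21.2 and 29.6 CPM on BM day 3. The BM day 7 libraries had 30.4, 32.9 and 23.4 CPM. The AM libraries were at 64.5, 75.6 and 71.3 CPM on day 0, at 65.5, 54.7, 27.3 and 47.6 CPM on day 1, at 38.7, 40.5 and 57.3 CPM on day 3, and at 60.1, 62.2, 65.4 and 62.3 CPM on day 7. The libraries at 0 are BM day 1 replicate 3 and BM day 3 replicate 1, whose limits for a count of 0 (3 counts) are 0.214 and 0.247 CPM. These limits cover counting error only. Neither library belongs to day 7, where the log2 fold change of BM against AM was -1.11 ± 1.08 in the fit of all libraries (edgeR adjusted p = 1.0). It was -1.12 ± 0.33 with both libraries left out of that fit (edgeR adjusted p = 0.062). With the day 7 libraries alone it was -1.11 ± 0.13 (edgeR adjusted p = 0.00021). On day 3 the groups did not overlap either, with a log2 fold change of -1.23 ± 1.05 (edgeR adjusted p = 0.6) and of -0.83 ± 0.35 without both libraries (edgeR adjusted p = 0.15).

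Ppard, a receptor for fatty acids, had group means from 34.3 CPM (AM day 7) to 60.2 CPM (BM day 1), and all neighbours in that order overlapped. It was at 0, 51.7, 91.2 and 36.3 CPM on BM day 3, the 0 again in replicate 1, against 46.9, 36.3 and 38.1 CPM on AM day 3. On BM day 1 it was at 79.6, 78.2, 42.0, 54.2 and 46.8 CPM, against 38.2, 43.8, 23.3 and 32.2 CPM on AM day 1, with 1 BM library inside the AM range. The log2 fold change was 0.81 ± 0.70 (edgeR adjusted p = 0.42); without BM day 3 replicate 1 it was 0.79 ± 0.26 (edgeR adjusted p = 0.02, with 37.4% of all genes called), and without both libraries that stood apart 0.90 ± 0.25 (edgeR adjusted p = 0.0063). In AM, all day 1, 3 and 7 libraries lay below the 3 day 0 libraries, which were at 55.6, 53.0 and 47.7 CPM. The adjusted p-values of these 3 comparisons in edgeR were 0.79, 1.0 and 1.0 in that order of days. Day 7 against day 0 with these libraries alone gave -0.59 ± 0.13 (edgeR adjusted p = 0.011).

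Ppargc1b encodes PGC-1 beta, a coactivator of the PPARs and estrogen-related receptors and the only coactivator among the 10 genes. Its group means ran from 12.9 CPM (AM day 0) to 31.2 CPM (AM day 1). On BM day 1 it was at 29.3, 23.7, 0, 8.80 and 4.06 CPM, against 36.3, 46.8, 19.6 and 22.2 CPM on AM day 1. All AM day 1 libraries lay above those of AM day 0, which were at 16.5, 13.2 and 9.18 CPM. Neither difference passed the test: the log2 fold changes were -1.24 ± 0.78 for BM day 1 against AM day 1 (edgeR adjusted p = 0.24) and 1.27 ± 0.92 for AM day 1 against AM day 0 (edgeR adjusted p = 0.51). By day 7 the means were 19.0 ± 1.56 CPM in BM-derived macrophages (SD, n = 3) and 19.7 ± 1.91 CPM in AM (SD, n = 4), and the log2 fold change was -0.05 ± 0.89 (edgeR adjusted p = 1.0).

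Esrra, which encodes ERR alpha, a driver of mitochondrial genes, was at 118, 96.7, 64.2, 103 and 104 CPM on BM day 1 and at 62.5, 84.1, 51.3 and 68.8 CPM on BM day 3. By BM day 7 it stood at 87.0, 87.2 and 80.4 CPM. In resident AM it was at 82.7, 67.1 and 79.7 CPM on day 0, at 115.5, 102, 122.5 and 115 CPM on day 1, at 90.3, 99.2 and 89.3 CPM on day 3, and at 131, 103, 119 and 101 CPM on day 7. Every AM library of days 1, 3 and 7 lay above every day 0 library. Esrra fell on BM day 3 against BM day 1 by 0.54 ± 0.18 on the log2 scale (edgeR adjusted p = 0.03). That call was kept under 21 of 35 alternatives. It was lost without BM day 3 replicate 1 (-0.50 ± 0.19, edgeR adjusted p = 0.054) or 3, BM day 1 replicate 1, AM day 0 replicate 1 or 2, or any 1 library of AM day 3 or BM day 7, with edgeR adjusted p-values from 0.052 to 0.094. It was lost too with no filter (edgeR adjusted p = 0.063), with the compared groups alone (0.18) and with a block by title numbers (-0.51 ± 0.20, edgeR adjusted p = 0.081). The log2 fold change of AM day 1 against AM day 0 was 0.57 ± 0.21 (edgeR adjusted p = 0.10), and 0.56 ± 0.17 without both libraries that stood apart (edgeR adjusted p = 0.024, with 14.0% of all genes called). On BM day 7 the mean was 84.9 ± 3.84 CPM (SD, n = 3), against 113 ± 14.0 CPM on AM day 7 (SD, n = 4), without overlap. The log2 fold change was -0.42 ± 0.20 (edgeR adjusted p = 0.64) and, with these libraries alone, -0.42 ± 0.11 (edgeR adjusted p = 0.017). Esrra exons share 73 bases with Trmt112 on the opposite strand, and the strand setting of the counting is not given, so those reads cannot be told apart.

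Nr3c1, the glucocorticoid receptor, was highest on day 1 and lower on day 3 in both cell types. It was at 158, 140.3, 209, 144 and 116 CPM on BM day 1 and at 79.5, 107, 94.5 and 123 CPM on BM day 3. Libraries of BM day 7 had 122.5, 136 and 107 CPM. In resident cells it was at 147, 153 and 98.5 CPM on day 0, at 177, 165, 149.6 and 172 CPM on day 1, at 100.1, 77.7 and 87.4 CPM on day 3, and at 109, 133, 122 and 128 CPM on day 7. The AM day 3 libraries lay below all AM day 1 and day 7 libraries, while BM days 1 and 3 overlapped. Nr3c1 fell on AM day 3 against AM day 1 by 0.91 ± 0.21 on the log2 scale (edgeR adjusted p = 0.027). It fell on BM day 3 against BM day 1 by 0.60 ± 0.18 (edgeR adjusted p = 0.017). The AM call was lost when any of 6 of the 7 AM day 1 and day 3 libraries was left out, all but AM day 1 replicate 3 (edgeR adjusted p-values from 0.059 to 0.25), and the BM call without BM day 3 replicate 1 (-0.49 ± 0.18, edgeR adjusted p = 0.052). Without both libraries that stood apart the BM difference was -0.36 ± 0.17 (edgeR adjusted p = 0.11), and with the compared groups alone -0.70 ± 0.24 (edgeR adjusted p = 0.087). The AM call was also lost with no filter (edgeR adjusted p = 0.1) and with a block by title numbers (edgeR adjusted p = 0.057). Between the cell types the log2 fold changes were -0.11 ± 0.18 on day 1, 0.19 ± 0.20 on day 3 and -0.01 ± 0.20 on day 7, with edgeR adjusted p-values of 0.68, 0.71 and 1.0.

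**Figure D4:**
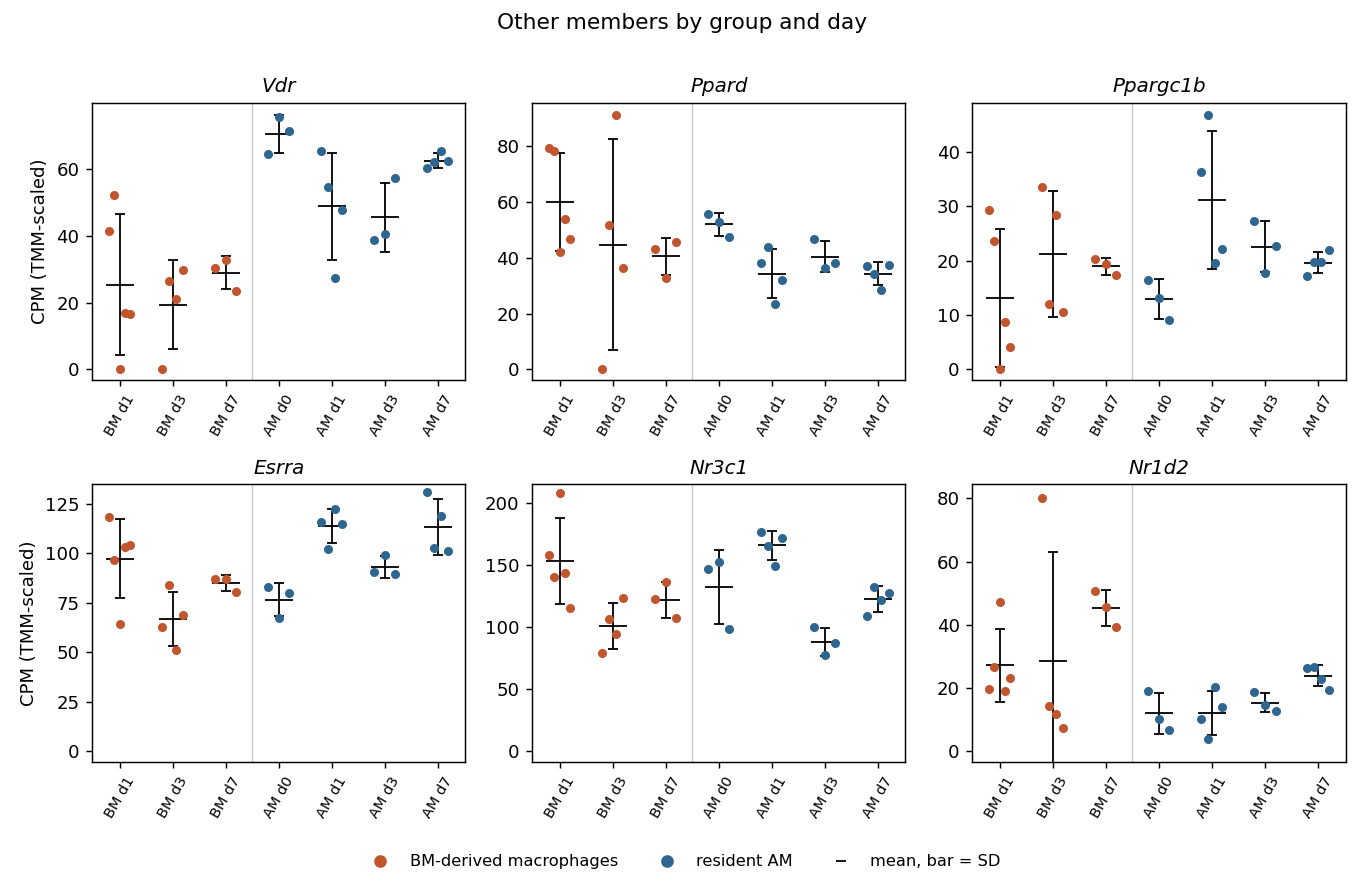
CPM of Vdr, Ppard, Ppargc1b, Esrra, Nr3c1 and Nr1d2 in each library (points), with group means and SD, BM days 1, 3 and 7 left of AM days 0, 1, 3 and 7. The points at 0 are BM day 1 replicate 3 (Vdr, Ppargc1b) and BM day 3 replicate 1 (Vdr, Ppard), and the high Nr1d2 point of 80.1 CPM is also BM day 3 replicate 1.

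Nr1d2 encodes REV-ERB beta, a haem-binding repressor of the circadian clock, and was the lowest member per kilobase on AM day 0, at 2.22 ± 1.19 CPM per kilobase (SD, n = 3). It was at 19.7, 26.8, 47.1, 19.1 and 23.2 CPM on BM day 1 and at 80.1, 14.5, 11.8 and 7.40 CPM on BM day 3. On BM day 7 its values were 50.7, 45.7 and 39.4 CPM. In resident cells it was at 19.1, 10.2 and 6.64 CPM on day 0, at 10.1, 4.00, 20.3 and 14.0 CPM on day 1, at 18.8, 14.5 and 12.9 CPM on day 3, and at 26.2, 26.7, 22.9 and 19.5 CPM on day 7. Its 2 highest values outside BM day 7 came from BM day 3 replicate 1 and BM day 1 replicate 3. With BM day 3 replicate 1 the group mean was 28.5 ± 34.6 CPM (SD, n = 4), and without it 11.2 ± 3.57 CPM (SD, n = 3). The log2 fold change of BM day 7 against BM day 3 was accordingly 0.67 ± 0.65 with replicate 1 (edgeR adjusted p = 0.66) and 2.02 ± 0.53 without it (edgeR adjusted p = 0.027), where 3.75% of 17105 genes were called. The same library set the direction of other Nr1d2 differences, none of them called. BM day 3 against BM day 1 was 0.06 ± 0.58 with it (edgeR adjusted p = 0.99) and -1.26 ± 0.48 without it (edgeR adjusted p = 0.056). BM day 3 against AM day 3 was 0.88 ± 0.67 with it (edgeR adjusted p = 0.53) and -0.47 ± 0.51 without it (edgeR adjusted p = 0.72). On day 7 all BM libraries lay above all AM libraries, at 45.3 ± 5.66 CPM (SD, n = 3) against 23.9 ± 3.37 CPM (SD, n = 4). The log2 fold change was 0.93 ± 0.65 in the fit of all libraries (edgeR adjusted p = 1.0) and 0.92 ± 0.15 with the day 7 libraries alone (edgeR adjusted p = 0.0016). The hour of collection, which moves clock genes, is not in the labels.

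Groups that did not overlap were more frequent among members than calls, and are set beside their background here. Between BM and AM, 5 members did not overlap on day 3 (15.0% of all genes) and 5 on day 7 (29.7%). Against AM day 0, 5 members did not overlap on AM day 1 (30.5%), 8 on AM day 3 (33.7%) and 8 on AM day 7 (26.8%). The count was 7 for AM day 7 against day 3 (23.7%). For AM day 3 against day 1 the count was 2, and the share of all genes was not counted there. It was 1 for BM day 3 against day 1 (12.3%) and 1 for BM day 7 against day 3 (19.7%). Depth differs as well between AM day 0, at 35780951 to 80816742 counts, and AM days 1, 3 and 7, at 9176202 to 27513205 counts.

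Over the 26 libraries, the genes whose log2 CPM most resembled a member's were listed by Pearson's r, as a description; libraries share groups, depth and the separation of 2 libraries. Rxra was most like Abcg1, a cholesterol exporter (r = 0.932, and 0.935 in the 24 libraries without the 2 that stood apart), and Apbb1ip (0.931). Rara was most like Hjurp (0.909) and Stk40 (0.892), and Nr1h3 was most like Nod1 (0.849). For Vdr (Znrd1, 0.984), Ppard (Bahd1, 0.981) and Ppargc1b (Arfgap3, 0.947) the likeness rested in part on the libraries at 0, since without these 2 libraries r was 0.740, 0.685 and 0.703. The closest genes were Tpst2 for Nr1h2 (0.767), Syk for Nr3c1 (0.736), Scfd1 for Esrra (0.784) and Usp47 for Nr1d2 (0.831). Among the members themselves, r was 0.233 for Rxra with Rara and 0.473 for Nr1h3 with Rara over the 26 libraries.

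The list counts below stand beside the shares of all genes called. These were 29.0% on BM day 1 against AM day 1 (15.2% higher, 13.8% lower) and 25.9% on BM day 3 against BM day 1 (10.6% higher, 15.2% lower). They were 6.28% on AM day 1 against day 0, 3.98% on BM day 3 against AM day 3, 3.98% on BM day 7 against BM day 3 and 1.77% on BM day 7 against AM day 7. Of 40 other nuclear receptors, 22 passed the filter. On BM day 1 against AM day 1, 5 were higher and 1 lower, near the share of all genes. Their median log2 fold change was 0.44 beside 0.06 over all genes. Nr4a1, an immediate early orphan receptor that is also in the monocyte marker list, averaged 1797 CPM on BM day 1, against 295.9 CPM on AM day 1, a log2 fold change of 2.60 ± 0.21 (edgeR adjusted p = 6.8e-10). It fell by 2.34 ± 0.21 on BM day 3 against BM day 1 (edgeR adjusted p = 1.5e-08). Nr2c2, the testicular receptor TR4, was at 70.5 CPM on BM day 1, against 14.5 CPM on AM day 1 (log2 fold change 2.28 ± 0.42). On BM day 3 against BM day 1, 7 of these receptors were lower and 1 higher. In AM, 3 were lower on day 1 than on day 0, among them Nr4a3 at 70.7 CPM on day 1 and 189 CPM on day 0, and 0 were higher.

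Of 21 coactivators and corepressors tested, 13 were higher and 2 lower on BM day 1 than on AM day 1, with a median log2 fold change of 1.08. Crebbp, a histone acetyltransferase, averaged 302 CPM on BM day 1 and 50.4 CPM on AM day 1 (2.58 ± 0.21, edgeR adjusted p = 7.0e-10). Ncoa3, a steroid receptor coactivator, averaged 363 CPM on BM day 1 and 75.1 CPM on AM day 1. On BM day 3 against BM day 1, 12 were lower and 1 higher, including Crebbp at 64.3 CPM on day 3 and 302 CPM on day 1 (-2.23 ± 0.20, edgeR adjusted p = 2.3e-08). On AM day 1, 3 were lower than on day 0, among them Ncoa1 at 41.5 CPM on day 1 and 125 CPM on day 0.

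**Figure D5:**
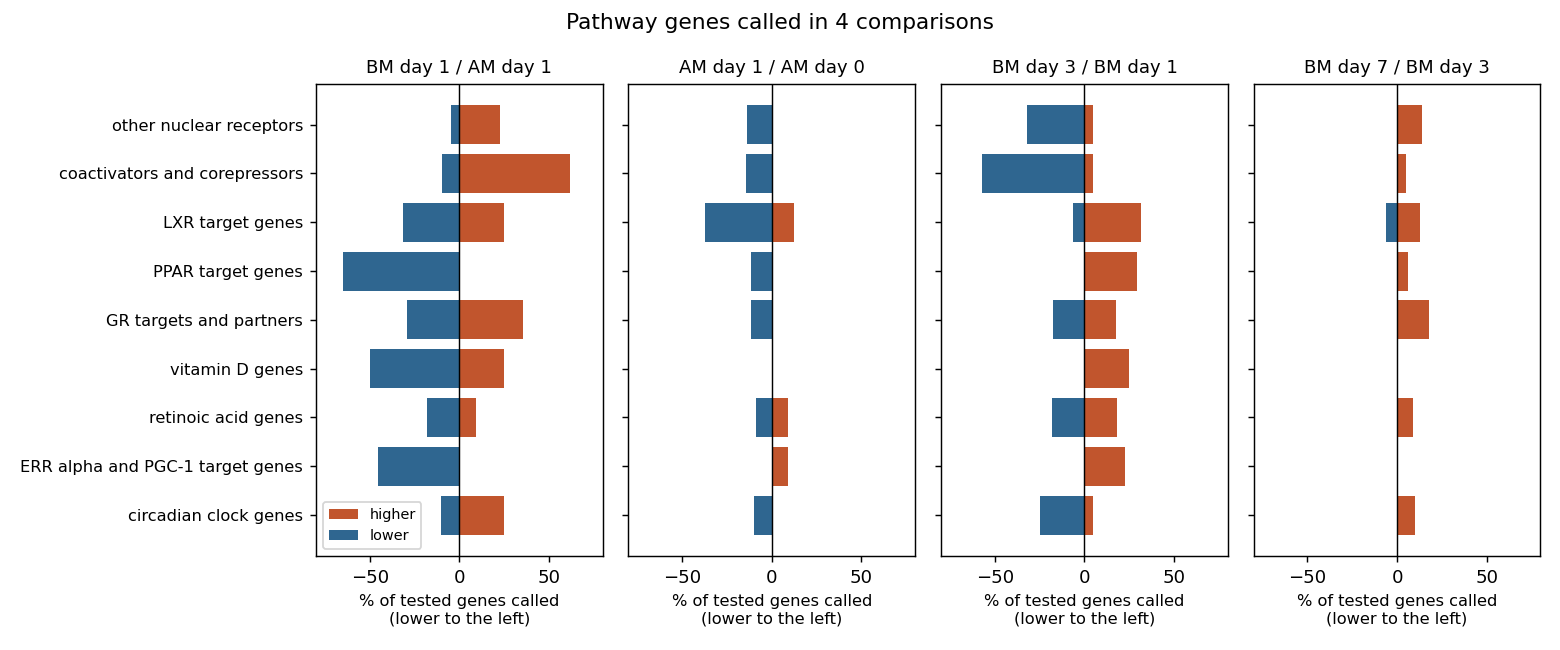
Percent of the tested genes of each of 9 pathway lists that were called higher (right of 0) or lower (left of 0) in 4 comparisons. Coactivators and corepressors were mostly called higher on BM day 1 against AM day 1 (13 of 21) and PPAR targets lower (11 of 17). Of all genes, 29.0% were called on BM day 1 against AM day 1 and 6.28% on AM day 1 against AM day 0. The shares were 25.9% on BM day 3 against BM day 1 and 3.98% on BM day 7 against BM day 3.

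Among the target genes of the receptors, 16 of 17 LXR targets were tested. They split on BM day 1 against AM day 1, with 4 higher and 5 lower, and on AM day 1 against day 0, with 2 higher and 6 lower. Apoe, the apolipoprotein of cholesterol efflux, averaged 14670 CPM on BM day 7, against 524 CPM on AM day 7 (log2 fold change 4.81 ± 0.57, edgeR adjusted p = 1.6e-05), on a day when Nr1h3 averaged 62.1 CPM in BM-derived macrophages and 74.7 CPM in AM. Across AM, Apoe averaged 116 CPM on day 0, 450 CPM on day 1, 2837 CPM on day 3 and 524 CPM on day 7. Abcg1 averaged 312 CPM on BM day 3, against 961 CPM on AM day 3 (-1.62 ± 0.23, edgeR adjusted p = 0.00013). Lpl, lipoprotein lipase, was at 237 CPM on BM day 1, against 6433 CPM on AM day 1.

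Of 17 PPAR targets tested, 11 were lower and 0 higher on BM day 1 than on AM day 1 (median log2 fold change -1.31), and 4 were lower on BM day 3 and 2 on BM day 7 than in AM of the same day. The fatty acid carrier Fabp4 averaged 29.8 CPM on BM day 3, against 135 CPM on AM day 3 (-2.18 ± 0.55, edgeR adjusted p = 0.027), and the mitochondrial enzyme Hadha 178 CPM on BM day 7, against 330.3 CPM on AM day 7. Fabp4 and Cidec are also alveolar macrophage markers in the list used here. ERR alpha and PGC-1 targets, all 22 of them tested, showed 10 lower and 0 higher on BM day 1 against AM day 1 (median -0.71), such as the respiratory chain subunit Cox6c at 40.1 CPM on BM day 1 and 195 CPM on AM day 1. Of these, 2 were higher on AM day 1 than on AM day 0, Cycs and Cox6c, and 5 were higher on BM day 3 than on BM day 1. Esrra itself differed by -0.23 ± 0.18 on BM day 1 against AM day 1 (edgeR adjusted p = 0.37).

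Of 17 glucocorticoid receptor targets and partners, 6 were higher and 5 lower on BM day 1 than on AM day 1. Zbtb16, a zinc finger protein, had 0 counts in all AM day 1 libraries and 3266 counts on BM day 1, at least 695-fold higher against a floor of 3 counts over the group. Mt1, a metallothionein, was at 23.2 CPM on BM day 1, against 367 CPM on AM day 1 (-3.98 ± 0.28, edgeR adjusted p = 8.6e-11). In AM day 3 against day 0, Zfp36, Dusp1 and Fkbp4 were lower, and Zfp36 and Dusp1, which end inflammatory messages and kinase signals, were higher on AM day 7 than on AM day 3. On BM day 7, 3 of the 17 were higher than on BM day 3.

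Of 8 genes in the vitamin D list, 4 were tested, with 1 higher and 2 lower on BM day 1 against AM day 1. The lower ones were Gc and Tbxas1. Tbxas1 encodes thromboxane synthase, so its call is not one of a vitamin D gene. Cyp27a1, a sterol hydroxylase, averaged 43.1 CPM on BM day 1 and 3.26 CPM on AM day 1 (3.73 ± 0.87, edgeR adjusted p = 0.0021). Of 15 retinoic acid genes, 11 were tested, with 1 higher and 2 lower in that comparison, near the 29.0% of all genes called. On AM day 1 against day 0, 1 was called in each direction (6.28% of all genes called). Dhrs3, which turns retinaldehyde back into retinol, was at 93.2 CPM on AM day 1, against 331.5 CPM on AM day 0 (-1.83 ± 0.27, edgeR adjusted p = 4.3e-05). It was at 372 CPM on AM day 7, against 179 CPM on AM day 3 (1.05 ± 0.28, edgeR adjusted p = 0.049). Tgm2, a transglutaminase, averaged 1540 CPM on BM day 1, against 780 CPM on AM day 1 (0.98 ± 0.25). Its mean on BM day 3 was 299.5 CPM, a log2 fold change of -2.36 ± 0.27 against BM day 1. The 20 circadian clock genes had 5 higher and 2 lower on BM day 1 against AM day 1, and 1 higher and 5 lower on BM day 3 against BM day 1. Both counts are near the shares of all genes called, 29.0% and 25.9%. On BM day 7 against BM day 3, 2 clock genes were higher, among them Nfil3 (3.98% of all genes called). Bhlhe41, a repressor that is also an alveolar macrophage marker, was at 8.48 CPM on BM day 1, against 158 CPM on AM day 1.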

How the data were processed

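RNA was sequenced from 26 libraries in 7 groups, and the authors deposited 1 table of raw counts per Ensembl gene. Per the submitters' processing notes, FastQC 0.11.9, Trimmomatic 0.39, HISAT2 2.1.0 and featureCounts 2.0.0 were used with GRCm38. The labels describe a stranded polyA library, while the strand setting of the counting and the annotation release are not given in the sources used here. All table columns matched a sample (0 without one).

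Here, edgeR 4.0.16 (R 4.3.3, limma 3.58.1) fitted all libraries together with TMM scaling, a filter at a count of 10, and a quasi-likelihood test of 11 contrasts, Benjamini-Hochberg adjusted over 17143 genes and called at an adjusted p under 0.05. The script was tested on simulated data. DESeq2 1.42.0, scaling, filters, fits of the compared groups alone, replicate blocks, a Y-linked covariate and each library left out were alternatives. Standard errors follow from the F statistic. CPM per kilobase divides by the union of exons (GENCODE M21).

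The members and all lists (9 pathway lists, 11 marker lists) were chosen with earlier results of these data known. From each list and comparison, up to 3 called genes with the largest fold change and at least 5 CPM in the higher group could be named, and for likeness the 2 genes with the highest r. Some genes that this rule selects are not reported here. Deviations of same-numbered replicates had mean correlations from -0.0129 to 0.0167 across groups. These averages mix all pairs of groups, most of them of different days. They cannot show whether AM and BM libraries of the same day were paired. Numbers were not used as pairs in the main fit and entered only as blocks in the alternatives.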

Additional observations from a re-analysis of the deposited data

Results flagged for a closer look

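Of 40 member and group combinations with enough libraries to examine, 2 held a library whose gap to the nearest other value exceeded Dixon's critical value at the 95% level, a rate that chance alone gives in about 1 of 20 groups. Nr1d2 was at 47.1 CPM in BM day 1 replicate 3, while the other BM day 1 libraries had 19.1 to 26.8 CPM. Nr1d2 was at 80.1 CPM in BM day 3 replicate 1, while the other BM day 3 libraries had 7.40 to 14.5 CPM. These are the libraries with the fewest genes at 1 CPM or more, and the part of that in the Nr1d2 values was not tested.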

How the results depend on the processing

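No called member value changed direction under the alternatives run, and 6 of the 14 calls were kept under every one of them: Nr1h3 and Rara on BM day 1 against AM day 1 and on BM day 3 against BM day 1, and Rxra and Rara on AM day 1 against day 0. Fitting the compared groups alone gave 5 members called on BM day 7 against AM day 7, on AM day 7 against day 0 and on AM day 7 against day 3 (all genes 2948, 2578 and 2246, against 303, 116 and 272), 4 on AM day 3 against day 0, 2 on BM day 3 against BM day 1 and 0 on BM day 3 against AM day 3 and BM day 7 against BM day 3 (all genes 6 and 41, against 683 in each). Such fits use fewer samples and genes. Leaving out the 2 libraries that stood apart gave 5 members on BM day 1 against AM day 1 and 2 on BM day 7 against BM day 3. On BM day 3 against AM day 3, the DESeq2 test and leaving out all BM day 1 libraries gave 2, and no filter or a Y-linked covariate gave 0. No filter also gave 0 on AM day 3 against day 1, and library size alone or a Y-linked covariate gave 0 on BM day 7 against BM day 3. The cause of these shifts was not tested. Leaving out 1 library gave 2 to 5 members on BM day 1 against AM day 1, 0 to 2 on BM day 3 against AM day 3, AM day 3 against day 0 and BM day 7 against BM day 3, 0 to 1 on AM day 3 against day 1, 2 to 3 on AM day 1 against day 0 and 2 to 4 on BM day 3 against BM day 1. Of 3526 alternative values of uncalled members, 126 had the opposite sign, 0 of them called. Among those printed, Nr1d2 on BM day 3 against AM day 3 (0.88) was -0.47 with a Y-linked covariate, -0.46 without both libraries that stood apart and -0.47 to 1.16 without 1 library. On BM day 3 against BM day 1 Nr1d2 (0.06) was -0.033 with no filter, -0.011 with the stricter one, -0.063 with the compared groups alone, -0.52 with a Y-linked covariate and -0.98 without both libraries, and -1.26 to 0.36 without 1 library. Ppargc1b on BM day 7 against BM day 3 (-0.16) was 0.16 without both libraries and -0.35 to 0.16 without 1 library. On BM day 7 against AM day 7 Ppargc1b (-0.05) was 0.020 with a Y-linked covariate and -0.11 to 0.0085 without 1 library. Nr3c1 was 0.015 with that covariate and -0.20 to 0.012 without 1 library on BM day 1 against AM day 1 (-0.11), and -0.11 to 0.068 without 1 library on BM day 7 against AM day 7 (-0.01). Ppard on AM day 7 against day 0 (-0.60) was 0.19 with that covariate. With DESeq2, all-gene calls were 1834 on BM day 3 against AM day 3, 844 on AM day 3 against day 1 (143 by edgeR) and 1496 on BM day 7 against BM day 3.

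With the replicate block by description numbers, 0 members were called on BM day 3 against AM day 3 and 1 on AM day 3 against day 0, and by title numbers 0 on AM day 3 against day 1. The block by title numbers also ended the Esrra call on BM day 3 against BM day 1 (-0.51, edgeR adjusted p = 0.081), and gave -0.34 for Nr1d2 there and 0.0080 for Nr3c1 on BM day 7 against AM day 7. The block by description numbers gave Ppargc1b values of 0.0051 on BM day 7 against BM day 3 and 0.027 on BM day 7 against AM day 7. The fit with description numbers left out BM day 1, so it gives no value for comparisons with that group. The pairing check averaged over groups of different days as well, so it cannot decide whether libraries of the same day were paired.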
